A study of Mus musculus with 10 samples.

Results

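The suppressors of cytokine signalling (SOCS) family comprises 8 genes, Cish and Socs1 to Socs7, and all 8 were measured here in mouse haematopoietic stem cells (HSCs), among 19938 genes with a probe set of their own. The members were taken by name. Their 12 probe sets carry a single gene symbol in the platform annotation, and for a gene with several the values used were chosen by the highest mean over all 10 arrays, so the level of a probe set is a description and not a result.

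SOCS proteins are feedback inhibitors of cytokine receptors that signal through JAK kinases and STAT transcription factors. Each has an SH2 domain, which binds phosphorylated tyrosines on a receptor or kinase, and a SOCS box, which recruits elongins and a cullin to form a ubiquitin ligase. The genes for CIS (Cish), SOCS1, SOCS2 and SOCS3 are themselves switched on by activated STATs, whereas SOCS4 to SOCS7 are mostly linked to growth factor and insulin receptors. In HSCs, cytokine receptors of this class such as that for thrombopoietin govern quiescence and self-renewal.

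The study compared HSCs of 8-week-old mice that carried an inducible Sox17 transgene with HSCs of littermate controls labelled wild type, 5 arrays per group. Transgenic mice were double transgenic: (tetO)7CMVSox17-IRES-NucEGFP places Sox17 and a nuclear green fluorescent protein under a tetracycline-responsive promoter, and Gt(ROSA)26Sortm1(rtTA*M2)Jae supplies the doxycycline-dependent activator from the Rosa26 locus, which is active in most cell types and is not restricted to HSCs. Both groups drank doxycycline at 2 mg/ml for 5 days, so the drug is common to them. Each array received RNA of 10000 CD150+CD48-Lineage-Sca1+cKit+ bone marrow cells, amplified before hybridisation to the Mouse Gene ST 1.0 array. The labels call the aliquots independent but do not say which animals they came from, so the p-values cover only the variation among these samples, part of which may be technical. In such bulk samples, more cells of a type and more RNA per cell cannot be told apart.

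All values are log2 expression, on which 1 unit is a doubling, and all differences are transgenic minus wild type. The probe set of Sox17 itself averaged 4.37 ± 0.13 in the transgenic and 4.21 ± 0.13 in the wild-type group (SD, n = 5 each; limma, adjusted p = 0.855), so the direction of each difference rests on the labels. The arrays fell into a set A (transgenic 1 to 3, wild-type 1 and 2) and a set B (transgenic 4 and 5, wild-type 3 to 5), a division read from the values (first principal component after the mean of each group was subtracted). Transgenic array 4 had Xist at 4.32 against 10.8 to 11.4 on the other arrays. Of the HSC markers, 12 of 13 had a probe set of their own and 0 of the 12 averaged below 4.08, the 20th percentile of all values. Of the markers of other cells, 4 of 7 T and NK cell genes, 3 of 6 B cell genes, 3 of 6 mast cell and basophil genes and 2 of 12 granulocyte and monocyte genes averaged below it. The remaining members of these lists lay above it, among them the T and NK cell genes Cd3e (6.07) and Nkg7 (6.99), the B cell genes Cd79b (6.61) and Vpreb1 (7.25) and the myeloid genes Mpo (6.27) and Cd68 (7.24).

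Cish, the member that inhibits STAT5-activating receptors such as those for erythropoietin and interleukin-3, rose in the transgenic HSCs and was the 1 member past the threshold. Socs2, the inhibitor of growth hormone and insulin-like growth factor signalling, had the larger difference but a wider spread, and did not pass. The other 6 members differed by -0.20 to 0.32. With 1 of 8 members called higher (limma, Benjamini-Hochberg over 23410 probe sets, threshold 0.05), the background is 0.12% of probe sets called higher and 0.141% called in either direction. A p under 0.05 before adjustment was found for 2 of 8 members, Cish and Socs2, against 6.59% of all probe sets. Since the family was singled out with earlier results of these arrays known, these shares describe it and do not test it. The median difference of the 8 members was 0.19, against -0.01 over all genes, and 7 of the 8 differences were positive, against 45.7% over all genes.

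Cish read 7.63, 6.98, 7.88, 7.50 and 7.91 on transgenic arrays 1 to 5 and 6.09, 6.52, 6.72, 6.59 and 6.37 on wild-type arrays 1 to 5. All 5 transgenic values lay above all 5 wild-type values, with transgenic array 2 closest to the wild type; 0.876% of all probe sets were parted in this direction without overlap. The means were 7.58 ± 0.38 and 6.46 ± 0.24 (SD, n = 5 each), a difference of 1.12 (SE 0.18), or 2.17-fold with a 95% interval of 1.65 to 2.86 (limma, adjusted p = 0.0447). By p-value it stood 32nd of 23410 probe sets. Taken by array set, the difference was 1.19 in 3 against 2 arrays (A) and 1.15 in 2 against 3 (B), which did not pass with so few arrays (limma, adjusted p = 0.355 and 0.178). Its size thus moved little, but the call was at the edge of the threshold. Leaving out 1 array at a time gave 1.03 to 1.27, and the adjusted p then ran from 0.00485 without transgenic array 2 to 0.130 without wild-type array 5, passing in 1 of 10 cases. Without transgenic array 4 the difference was 1.14 (limma, adjusted p = 0.101). With the replicate number as a block the call was lost too (limma, adjusted p = 0.0812).

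**Figure D1:**
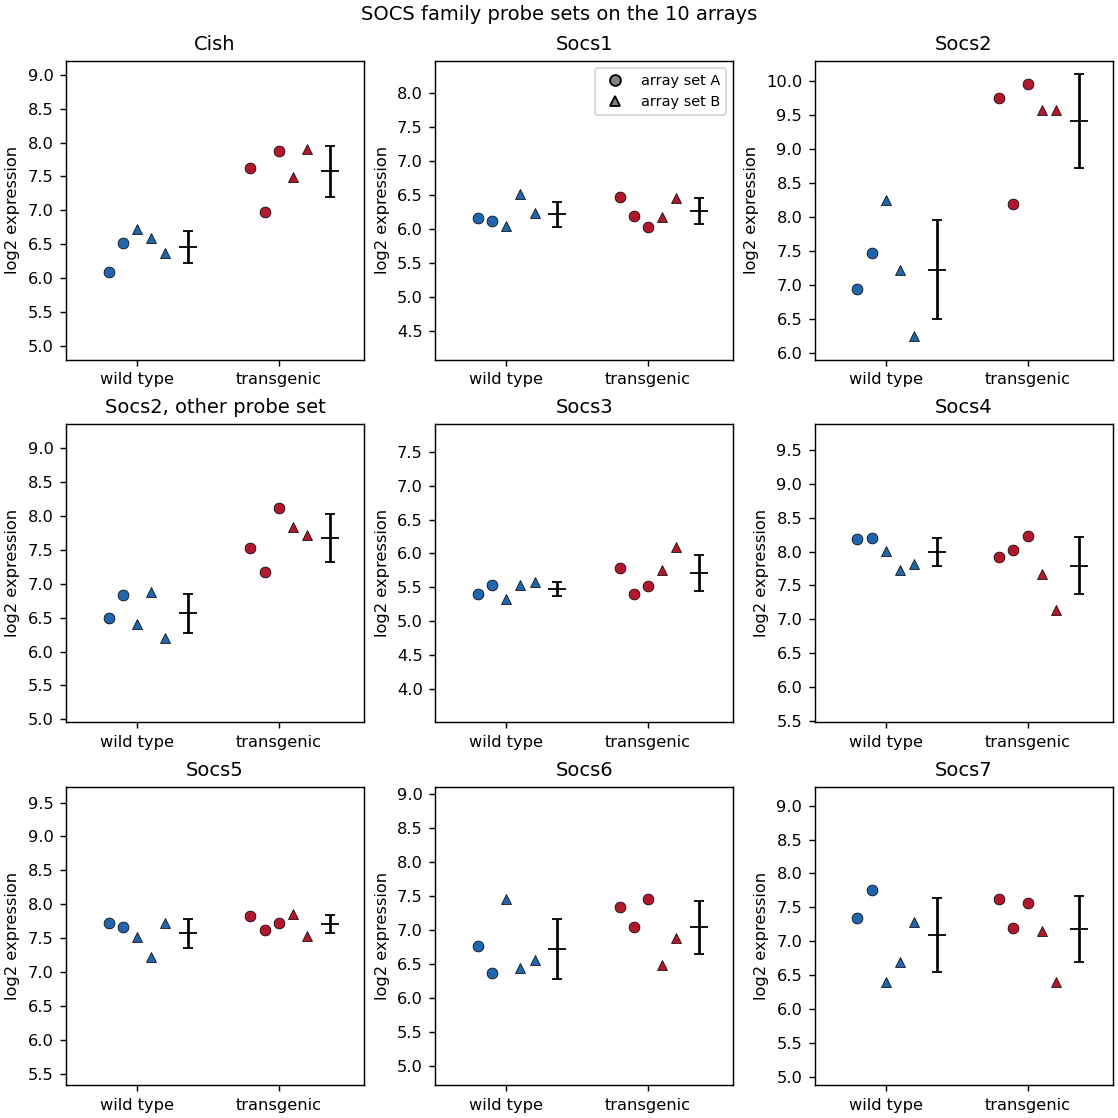
Log2 expression of the 8 SOCS genes, and of the other Socs2 probe set, on each array (y axis, each panel spanning the same range of log2 units), with wild-type arrays in blue and transgenic arrays in red, in the order of their replicate numbers; circles are array set A, triangles set B, and the bar beside each group is its mean ± SD (n = 5). The groups part without overlap for Cish (6.98 to 7.91 against 6.09 to 6.72) and for the other Socs2 probe set, and mix for Socs1, Socs3, Socs4, Socs5, Socs6 and Socs7.

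The start of the Cish gene is shown because it holds a pair of motifs of the kind that STAT dimers bind, and because Cish is the member called here. Promoter windows from 250 bases before to 50 after the annotated start (RefSeq, GRCm38.p6) were given for 4 of the 8 members, Cish, Socs1, Socs3 and Socs4. They were searched on both strands for the STAT motif TTCNNNGAA (interferon-gamma activated site, GAS; it reads the same on either strand), for the core of the interferon-stimulated response element (ISRE; GAAA, any 2 bases, GAAA) and for the SOX motif AACAAT. Capitals mark GAS-type or ISRE-type matches in the following stretches, written 5′ to 3′ on the gene's strand. The Cish stretch is chr9:107296529-107296678 on the plus strand, that of Socs3 chr11:117969467-117969546 on the minus strand and that of Socs1 chr16:10785567-10785666 on the minus strand.
Cish: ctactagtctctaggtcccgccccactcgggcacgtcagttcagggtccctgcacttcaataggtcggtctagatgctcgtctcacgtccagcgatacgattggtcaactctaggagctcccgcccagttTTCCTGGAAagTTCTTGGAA
Socs3: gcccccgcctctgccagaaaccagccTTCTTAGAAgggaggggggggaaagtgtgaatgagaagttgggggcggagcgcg
Socs1: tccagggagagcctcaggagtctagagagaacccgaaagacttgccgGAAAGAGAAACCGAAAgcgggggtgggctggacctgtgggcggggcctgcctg

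Cish held 2 GAS-type matches, TTCCTGGAA at transcribed bases 1 to 9 and TTCTTGGAA at bases 12 to 20 of the annotated transcript. A window with at least 1 such match made up 8.30% of 32851 windows of the same length, and one with at least 2 made up 0.457%. Socs3 held 1 GAS-type match, from base -154 to -146 before the start. Socs1 held none of that type but 2 ISRE-type matches that overlap each other between bases -83 and -68, a motif found in 3.44% of windows. Socs4 held neither motif, and the SOX motif, present in 10.7% of windows, was in 0 of the 4. Matches describe the letters of these windows only; no binding was measured here.

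**Figure D2:**
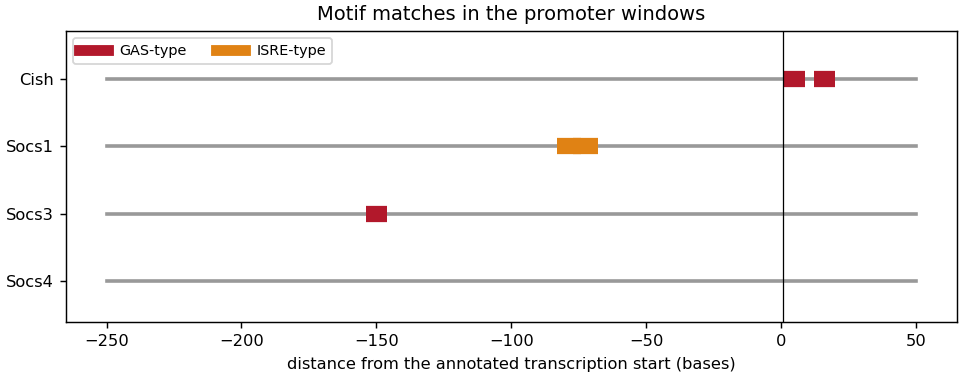
Positions of GAS-type (red) and ISRE-type (orange) matches in the promoter windows of Cish, Socs1, Socs3 and Socs4, by distance in bases from the annotated transcription start (vertical line); grey lines are the windows searched. The 2 Cish matches lie side by side from base 1 to base 20, the Socs3 match lies from -154 to -146, and Socs4 has none.

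Socs2 was measured by 2 probe sets that each carry only this gene's symbol. The brighter, used here, read 9.76, 8.19, 9.95, 9.58 and 9.58 on transgenic arrays 1 to 5 and 6.94, 7.47, 8.25, 7.22 and 6.24 on wild-type arrays 1 to 5. The groups overlapped by a single pair of arrays, transgenic 2 at 8.19 and wild-type 3 at 8.25. The difference was 2.19 (SE 0.39), or 4.56-fold with a 95% interval of 2.52 to 8.27, from means of 9.41 ± 0.70 and 7.22 ± 0.74 (SD, n = 5 each; limma, adjusted p = 0.0743). Taken by array set it was 2.10 (A) and 2.34 (B).

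The other Socs2 probe set read 7.52, 7.17, 8.11, 7.83 and 7.72 on transgenic arrays 1 to 5 and 6.49, 6.83, 6.41, 6.88 and 6.20 on wild-type arrays 1 to 5. It parted the groups without overlap, and wild-type array 3, the highest wild type on the brighter probe set, was its second-lowest. It differed by 1.11 (SE 0.18; limma, adjusted p = 0.0515), so both probe sets were higher by unequal amounts. The files do not say which part of the gene each probe set reads, and whether either also binds transcripts of another locus was not tested, so the size of the Socs2 difference depends on the probe set. By p-value they stood 48th and 36th of 23410. With the mean of both probe sets as the value of the gene, Socs2 was 1.65 higher and passed (SE 0.26; limma, adjusted p = 0.0415).

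Under 3 settings Cish and Socs2 both passed. With the array set as a block, 0.389% of probe sets were called in either direction, and Cish (limma, adjusted p = 0.0186), Socs2 (limma, adjusted p = 0.0476) and its other probe set (limma, adjusted p = 0.0382) passed. The set was read from these same values after the group means were subtracted. Blocking on it narrows the spread over all probe sets in any case, so this setting is no independent support either. Tested among the brighter 11705 probe sets alone, where 0.384% were called, Cish (limma, adjusted p = 0.0301) and Socs2 (limma, adjusted p = 0.0452) also passed. With an intensity trend and robust variance, where 0.162% were called, Cish passed (limma, adjusted p = 0.0398) and Socs2 did not (limma, adjusted p = 0.0754). Transgenic array 2 was the lowest transgenic array for Cish and on both Socs2 probe sets. Without it, with 0.303% of probe sets called, the differences were 1.27 for Cish (limma, adjusted p = 0.00485) and 2.49 for Socs2 (limma, adjusted p = 0.0137). Leaving out the lowest transgenic value raises a difference in any case, so this setting is no independent support. Array weights gave transgenic array 2 the highest weight, 1.49, against 0.59 to 1.26 on the other arrays. With these weights neither gene passed (limma, adjusted p = 0.0667 for Cish and 0.0956 for Socs2).

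**Figure D3:**
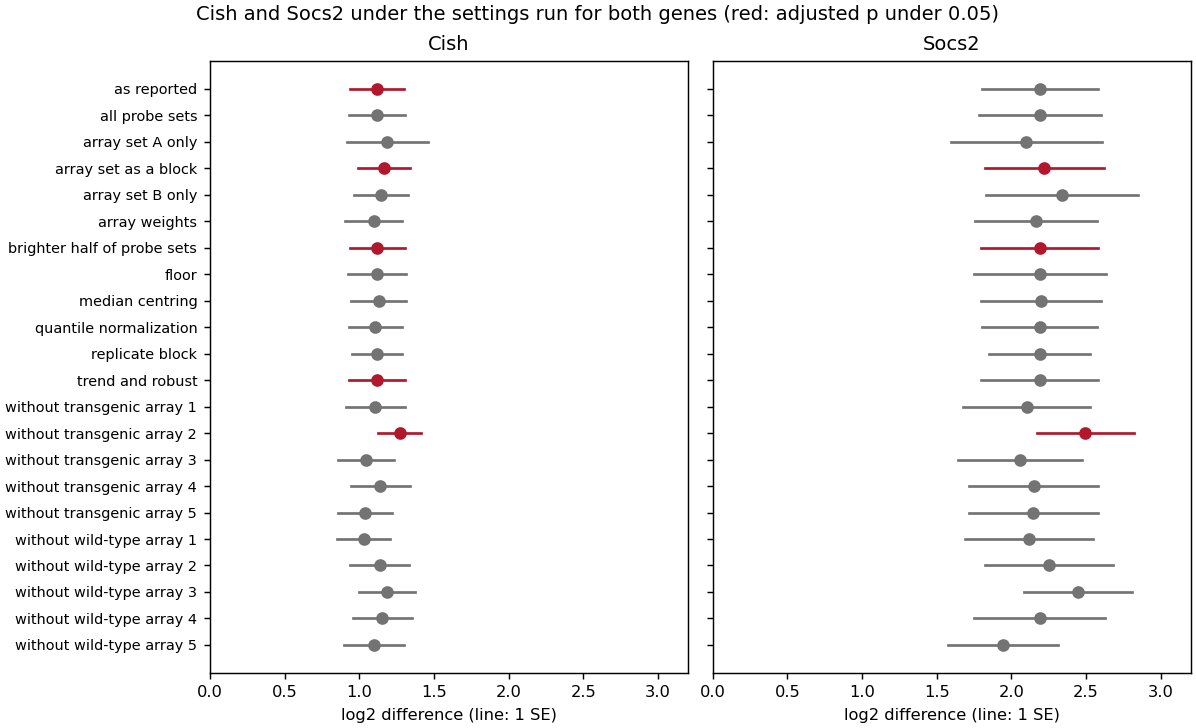
Log2 difference (x axis, transgenic minus wild type) of Cish (left) and Socs2 (right) under the settings run for both genes (y axis; Socs2 by its brighter probe set); points are the fitted differences, lines span 1 SE to either side, and red marks an adjusted p under 0.05 in limma. Across these settings Cish stays between 1.03 and 1.27 and Socs2 between 1.94 and 2.49, while the side of the threshold changes.

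Among 17066 other named genes, Socs2 was the fifth most like Cish in its pattern over the 10 arrays (Pearson r = 0.95). The 4 above it were the interferon-induced membrane protein gene Ifitm1 (r = 0.97), Akr1c13 (r = 0.96), the lymphocyte GTPase gene Gimap3 (r = 0.96) and Filip1l (r = 0.95). The 5 genes most opposite to Cish were the tubulin gene Tuba8 (r = -0.95), the stem cell factor receptor gene Kit (r = -0.95), Plek (r = -0.93), Fbn2 (r = -0.92) and Slbp (r = -0.91). The correlations run over both groups, so the difference between the groups is part of each, and they are given as a description. The remaining members ranged in r from -0.42 (Socs4) to 0.67 (Socs3).

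Socs3 and Socs1, the members with a kinase inhibitory region that acts on JAKs directly, did not pass. Socs3, which binds the interleukin-6 receptor chain gp130, read 5.79, 5.41, 5.52, 5.76 and 6.09 on transgenic arrays 1 to 5 and 5.40, 5.53, 5.33, 5.53 and 5.58 on wild-type arrays 1 to 5. The 3 highest values were transgenic, arrays 5, 1 and 4, and the other 2 transgenic arrays lay among the wild type. The difference was 0.24 (SE 0.12, 95% interval -0.03 to 0.51; limma, adjusted p = 0.817), and 0.07 on its second, dimmer probe set. Socs1, the main brake on interferon-gamma signalling, read 6.47, 6.19, 6.04, 6.18 and 6.46 on transgenic and 6.17, 6.11, 6.05, 6.52 and 6.24 on wild-type arrays. The groups overlapped throughout, with a difference of 0.05 (SE 0.12; limma, adjusted p = 0.988). Its 95% interval, -0.20 to 0.30, leaves out changes above 1.23-fold.

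Socs4 and Socs5, a closely related pair known for acting on the epidermal growth factor receptor, did not pass either. Socs4 ranged over 7.14 to 8.23 in transgenic and 7.73 to 8.21 in wild-type samples, and was the 1 member with a negative difference (-0.20, SE 0.19; limma, adjusted p = 0.947). Transgenic array 5, at 7.14, was the lowest. Socs5 varied least among the transgenic arrays, at 7.54 to 7.85 (SD 0.13) against the SD of the other members used here, 0.19 to 0.70. It read 7.22 to 7.73 on the wild-type arrays and differed by 0.14 (SE 0.11, 95% interval -0.11 to 0.39).

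Socs6 and Socs7, a second related pair that binds insulin receptor substrates, varied within the groups more than between them. Socs6 read 7.33, 7.04, 7.46, 6.48 and 6.88 on transgenic arrays 1 to 5 and 6.77, 6.37, 7.46, 6.44 and 6.56 on wild-type arrays 1 to 5. Wild-type array 3 was as high as the highest transgenic array, and the difference was 0.32 (SE 0.23; limma, adjusted p = 0.919), with 0.71 in set A but -0.14 in set B, which were not tested against each other. Its other 2 probe sets differed by 0.02 and 0.08, and the dimmer of them, at 2.60 to 2.89, lay below the 20th percentile of all values. Socs7 read 6.40 to 7.63 on the transgenic and 6.40 to 7.76 on the wild-type arrays, a difference of 0.09 (SE 0.28; limma, adjusted p = 0.991). Its 95% interval of -0.53 to 0.71 is the widest of these 6 genes. The sign of the Socs7 difference turned with the array set as a block (-0.05) and within each set.

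**Figure D4:**
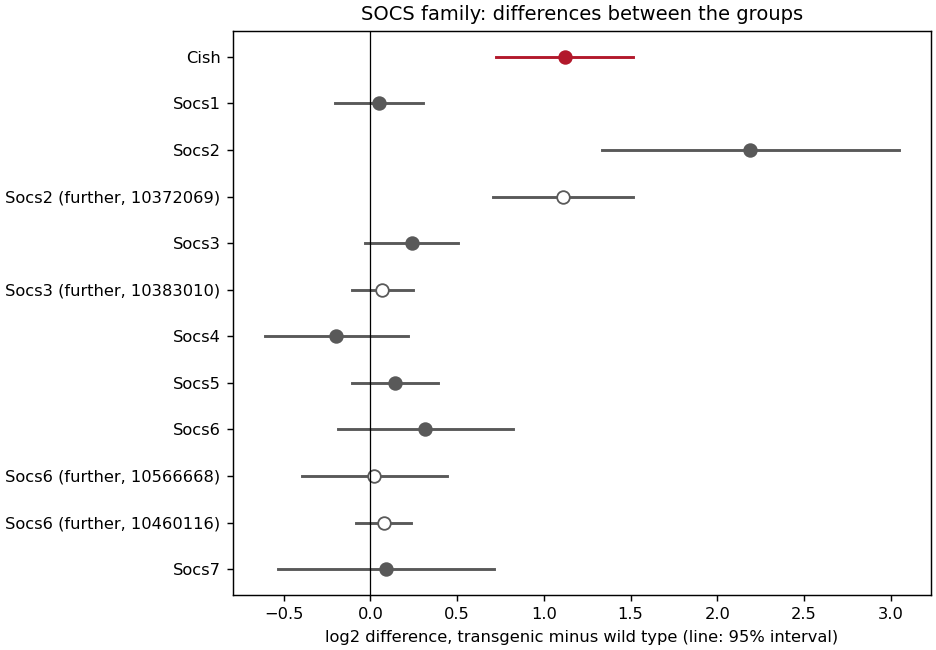
Log2 difference between transgenic and wild-type arrays (x axis) for the 12 SOCS probe sets (y axis); filled points are the probe sets used, open points the further ones of the same gene with their probe set number, lines are 95% intervals from limma (n = 5 per group), and red marks an adjusted p under 0.05. Cish and both Socs2 probe sets have intervals wholly above 0, from 0.71 upwards for the lowest, and the other 9 intervals include 0.

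Receptors, kinases and targets of the pathway were described with 9 lists of 143 entries in all, which gave 134 genes with a probe set of their own. Of these, 3 passed the threshold, all higher on the transgenic arrays (2.24%, against 0.15% of all genes with 1 probe set each), and 29 had an unadjusted p under 0.05, against 6.59% of all probe sets. The lists were chosen with results of these arrays known. The median difference of the 134 genes was 0.07, with 88 of them positive, against a median of -0.01 and 45.7% positive over all genes.

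The called receptors were Csf2rb, the beta chain shared by the interleukin-3, GM-CSF and interleukin-5 receptors, to which CIS is known to bind, and the interleukin-10 receptor chain Il10ra. Csf2rb read 7.47 to 7.98 on the transgenic and 6.08 to 6.82 on the wild-type arrays, a difference of 1.26 (SE 0.14; limma, adjusted p = 0.00831). Il10ra differed by 2.30 (SE 0.28; limma, adjusted p = 0.0110). Both passed whichever single array was left out, and neither passed in set A or set B alone or with the floor, which sets values below the 20th percentile to it. The other 27 of 29 measured cytokine receptors did not pass, Ifngr2 (0.70; limma, adjusted p = 0.0917) among them. Of the 29, 8 were higher and 2 lower with an unadjusted p under 0.05 (limma), against 6.59% of all probe sets in either direction. Among these were the gp130 gene Il6st (0.65) and the erythropoietin receptor gene Epor (-0.46). Of 12 growth factor receptors and adaptors bound by SOCS proteins 0 passed: the insulin receptor substrate gene Irs2 differed by 0.62, Flt3 by 1.53 and Kit by -0.47 (limma, adjusted p = 0.117, 0.132 and 0.248), and 3 had an unadjusted p under 0.05.

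No gene of the signal transducers was called. Of 3 measured JAK kinase genes 0 passed, and Jak1, Jak2 and Tyk2 differed by 0.15, 0.14 and 0.19, with 0 unadjusted p-values under 0.05 (limma). Of 6 measured STAT genes 0 passed and 1, Stat3 (0.26, SE 0.11), had an unadjusted p under 0.05 (limma); Stat4 differed by 0.33. Stat5a and Stat5b, whose proteins induce Cish, differed by -0.07 and -0.09. The 16 other inhibitors of the pathway gave 0 calls and 3 unadjusted p-values under 0.05 (limma), those of the ubiquitin ligases Cbl (0.35) and Cblb (0.25) and of the adaptor Lnk, Sh2b3 (0.30). Over all probe sets the share with such a p was 6.59%.

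Among STAT5 targets, 1 of 16 measured passed, the transcriptional repressor gene Gfi1, which rose from 5.80 ± 0.07 to 6.44 ± 0.19 (SD, n = 5 each; difference 0.64, limma, adjusted p = 0.0335). Its call was lost with the replicate block, with all probe sets tested, with the floor and in either array set alone, and also when 1 array was left out, except for transgenic array 2 or 3. Xbp1 and Pim2 had differences of 1.21 and 0.94 (limma, adjusted p = 0.173 and 0.375). In this list 6 genes were higher and 1 lower (Ccnd1, -0.68) with an unadjusted p under 0.05 (limma). Over all probe sets 6.59% had such a p, and 0.15% of all genes were called. Of 19 STAT3 targets 0 passed and 5 had an unadjusted p under 0.05 (limma): Myc differed by -0.72, Il4ra, also in the receptor list, by 0.76 and Vegfa by 0.43.

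Other proteins with a SOCS box, and the ligase they join, gave no call. Of 26 SOCS box genes outside the family (Asb, Spsb, Wsb and Rab40 genes) 0 passed and 1 had an unadjusted p under 0.05 (limma), Asb4 (0.31), with Asb12 at -0.18 and Asb7 at 0.38; 13 were positive and 13 negative, with a median of 0.01. Of 9 ligase genes 0 passed and 0 had an unadjusted p under 0.05 (limma). Their differences ran from -0.33 (Arih2) to 0.18 (Ube2f), with Rbx1 at -0.13.

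**Figure D5:**
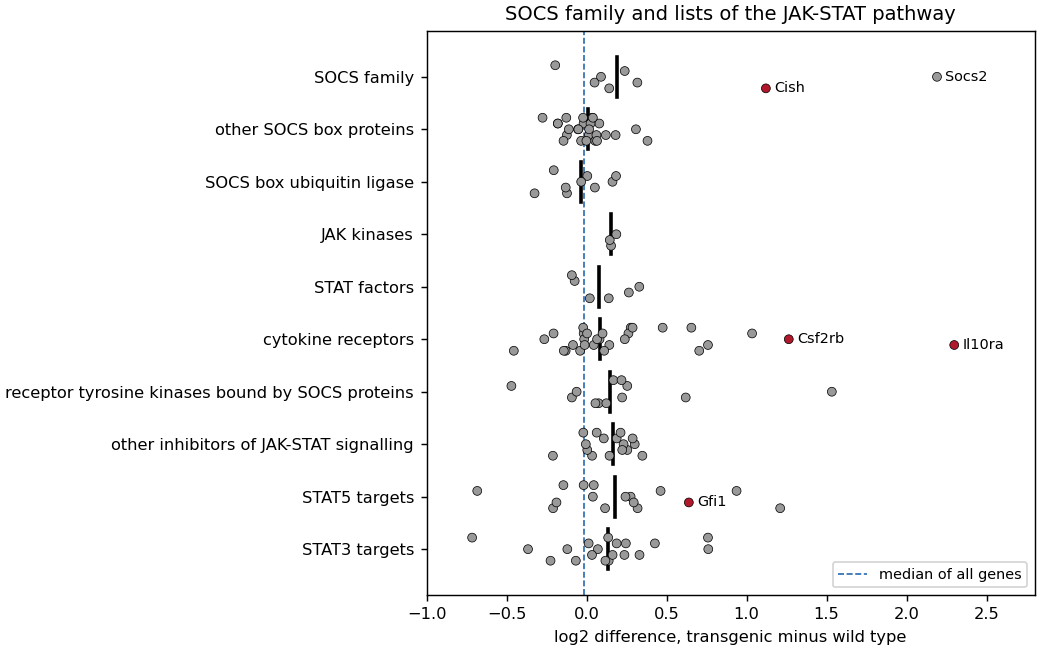
Log2 difference between transgenic and wild-type arrays (x axis) of each measured gene of the SOCS family and of 9 lists of the JAK-STAT pathway (y axis, points spread vertically for legibility); black bars are list medians, the dashed line is the median of all genes (-0.01), and red marks an adjusted p under 0.05. Cish, Csf2rb, Il10ra and Gfi1 are the genes past the threshold, and Socs2, named in grey at 2.19, is not.

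Several marker lists named for other cells parted the same groups of arrays as Cish. Over all genes 0.15% were called in either direction and 45.7% had a positive difference. How often lists of other genes part the groups was not tested. The megakaryocyte and platelet genes averaged 4.51 (Ppbp) to 8.15 (Pf4) and the endothelial genes 4.76 (Kdr) to 8.40 (Emcn). The HSC markers averaged 5.95 (Fgd5) to 10.3 (Meis1). Whether the genes of these lists were expressed by the HSCs themselves or by other cells was not tested. Of 6 multipotent progenitor markers 5 were positive and 1, Satb1, was called higher; the mean log2 value of the list ran from 6.19 to 6.70 on the transgenic and from 5.66 to 5.97 on the wild-type arrays, and transgenic array 2 was the lowest of the transgenic arrays there as well. In that list Il7r and Dntt averaged below the 20th percentile of all values. Cd48, whose protein the sort selected against, was 1.34 higher (6.29 ± 0.53 against 4.96 ± 0.51, SD, n = 5 each; limma, adjusted p = 0.145). The sort markers Slamf1 (CD150) and Kit differed by 0.19 and -0.47 (limma, adjusted p = 0.958 and 0.248). Whether the sorted cells were alike in the 2 groups was not tested. Of 7 measured megakaryocyte and platelet markers 6 were negative and 1, Pf4, was called lower (list mean 6.26 to 6.57 against 6.87 to 7.49). Of 7 endothelial markers 6 were positive and 0 were called (limma; list mean 6.83 to 7.30 against 6.22 to 6.68). All 7 T and NK cell markers were negative and 0 were called (limma; list mean 4.33 to 4.54 against 4.64 to 4.88), with Nkg7, a cytotoxic granule gene, at 6.40 ± 0.65 against 7.57 ± 0.34 (SD, n = 5 each) and 4 of the 7 below the 20th percentile. Nkg7 differed by -1.17, whereas the rest of that list differed by -0.19 (Ncr1) to -0.0058 (Cd3e), so Nkg7 makes up most of the difference in the list mean. Whether the list means would part the groups without it was not tested.

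The groups overlapped in the list means of the other lists, in which 0 genes were called (limma). Of 12 granulocyte and monocyte markers 10 were positive, with a median difference of 0.34 and a list mean of 5.04 to 6.25 on the transgenic against 4.87 to 5.20 on the wild-type arrays; transgenic array 5 was the highest. Of 7 measured erythroid markers 5 were negative, with a median of -0.38 (list mean 5.54 to 5.94 against 5.91 to 6.21). B cell, mast cell and stromal markers had medians of -0.042, -0.037 and -0.0033, with 2 of 6, 2 of 6 and 3 of 6 positive. The part of these cell types in the Cish and Socs2 differences was not tested.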

How the data were processed

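The 10 Affymetrix Mouse Gene ST 1.0 arrays were grouped by their titles. The authors deposited 1 table of log2 values with a row per probe set, made by robust multi-array average (RMA) per the submitters' processing notes, which also name affy and limma; for versions, settings and genome build the notes used here name none. RMA equalises array distributions and compresses differences among dim probe sets. Of 35556 probe sets, 21789 have 1 gene symbol, 1621 several and 12146 are unnamed here.

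The 23410 probe sets with a symbol were fitted with limma 3.58.1 (R 4.3.3; lmFit and eBayes, two-sided) on the deposited values, unfiltered, with p-values adjusted by Benjamini-Hochberg over the 23410; the test was checked on simulated data. Precision is limited by the number of arrays. The members, lists and alternatives were chosen with earlier results of these data known. Named genes were the 8 members, per pathway list the called genes and those with the smallest p up to 3, and the 5 genes most and least correlated with the member of smallest p, passing over predicted models, olfactory and vomeronasal receptors and small RNAs. A further list fixed at the start is not reported here. Promoter sequences are from RefSeq (GRCm38.p6). Alternatives were the replicate number or array set as a block, each set alone, quantile normalization, median centring, the 11705 brighter probe sets or all, trend and robust variance, array weights, a floor at the 20th percentile, leaving out each array, and for genes with several probe sets their mean and each further probe set.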

Additional observations from a re-analysis of the deposited data

Results flagged for a closer look

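A gap between the highest or lowest array of a group and its nearest neighbour that exceeded 0.71 of the group's range was found in 8 of 78 cases (members and named pathway genes, each group of 5 arrays), where chance alone gives about 1 in 20. Among the SOCS probe sets it was found in 3 of 24. For Socs2 the gap below transgenic array 2 (8.19, next 9.58) was 0.785 of the range. On the dim second probe set of Socs3, wild-type array 3 lay low (0.740), as it did on the dimmest probe set of Socs6 (0.913), at 2.60 against 2.77 to 2.79. Among pathway genes, transgenic array 5 was high for Ube2f (0.762) and low for Il4ra (0.778), transgenic array 4 was high for Stat3 (0.755), transgenic array 2 was low for Stat5b (0.712), and wild-type array 4 was low for Flt3 (0.717).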

How the results depend on the processing

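The Cish difference kept its direction under all 21 alternatives run and passed under 4. It no longer passed with all probe sets tested (1.12), in set A (1.19) or set B (1.15) alone, with array weights (1.10), the floor (1.12), median centring (1.13), quantile normalization (1.11) or the replicate block (1.12, adjusted p = 0.0812 in limma), and leaving out 1 array gave 1.03 to 1.27. Socs2 passed with the array set as a block (2.22), among the brighter probe sets (2.19) and with the mean of its probe sets (1.65), and leaving out 1 array gave 1.94 to 2.49. Signs turned for Socs6 within set B (-0.14), for Socs7 with the set as a block (-0.054), in set A alone (-0.092) or set B alone (-0.017), and when 1 array was left out for Socs7 (-0.084 to 0.29) and Socs1 (-0.0020 to 0.12). No sign turned for Socs3, Socs4 or Socs5 under the alternatives run, and none of these differences passed.

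The number of SOCS members past the threshold, 1 as reported, was 2 with the set as a block or the brighter probe sets, 0 with all probe sets, either set alone, array weights, the floor, median centring, quantile normalization or the replicate block, and 0 to 2 when 1 array was left out. Over all probe sets, 33 passed as reported, against 91 with the set as a block, 15 with all probe sets, 4 in set A alone, 6 in set B alone and 5 with the floor, and 15 to 71 when 1 array was left out. Pathway genes numbered 3, against 5 with the set as a block, 0 in either set alone or with the floor, and 2 to 6 when 1 array was left out. The cause of these changes was not tested. The fits within a set use fewer arrays, and the fit with all probe sets makes more tests. The set used as a block was itself read from these values. Arrays with the same replicate number share only a number: their deviations from the group means correlated from -0.14 to 0.35, and 0 of 5 transgenic arrays correlated best with the wild-type array of its own number. With the replicate block 33 probe sets passed, 18 of them among those reported. With 5 arrays per group, intervals for the members other than Cish and Socs2 reach 0.30 to 0.82 upwards, except Socs4 at 0.22, which bounds the rises that could have gone undetected.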
